A study of Bos taurus with 6 samples.

Results

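Amino acid transporter genes were examined in bovine blastocysts obtained from oocytes matured with or without melatonin (MT). The genes were chosen by symbol alone, as every gene of the deposited table in the solute carrier families SLC1A, SLC3A, SLC6A, SLC7A, SLC36A, SLC38A and SLC43A. The rule found 59 of the 36075 listed genes, of which 20337 had a symbol. SLC7A6OS, a gene named only for its place on the opposite strand to SLC7A6, also met the rule and is not a transporter, which left 58 transporter genes. Oocytes from ovaries of slaughtered cows were matured for 22 h in medium with 1e-07 mol/L MT or in the same medium without MT, then fertilized and cultured to blastocysts in vitro. Each group had 3 libraries, 1 from each of 3 production runs according to the methods, with the treatments carried out side by side within a run. The labels do not tie a replicate number to a run. Each library was a pool of 3 whole blastocysts, so that inner cell mass, trophectoderm and hypoblast were measured together. The labels name the groups MT-treated and control and give no dose.

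Cells take up amino acids through families of carriers with overlapping substrates. Carriers of the SLC1, SLC6 and SLC38 families use the sodium gradient, those of SLC36 use protons, those of SLC7 mostly exchange amino acids across the membrane, and those of SLC43 let neutral amino acids pass down their gradient. Several SLC7 carriers reach the cell surface only as light chains bound to a heavy chain, SLC3A2 or SLC3A1. Some carriers sit in the lysosome, where they release amino acids or report their level to the growth kinase mTORC1. In mammalian preimplantation embryos such carriers supply protein synthesis, glutathione synthesis and the small organic osmolytes that hold cell volume, and amino acid uptake by the trophectoderm precedes implantation.

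Values were deposited as TPM, a transcript abundance relative to gene length and library total, so that levels of different genes can be compared. TPM keeps no counts, so depth cannot be read from these values, and the sequencing depth reported for each library was not used here. A gene was tested if 3 or more libraries had 1 TPM or above. Tests were made on the log2(TPM + 1) scale with limma, and a gene was called at a Benjamini-Hochberg adjusted p under 0.05 over all 11953 tested genes. Differences are MT-treated minus control, and sets of 3 values are given in replicate order, in control and after MT. The groups stood far apart across the whole table. Between 8854 and 8953 genes were above 0 TPM in control and between 14372 and 14408 in the MT-treated libraries, and 95.7% of all tested genes were called. In the table as a whole 61.6% of tested genes had higher and 34.1% had lower levels after MT, and the groups did not overlap for 96.1%. Genes in general use by cells were also listed at 0 in every control library, such as GCN1, the activator of the amino acid shortage kinase GCN2, with 25.2, 25.2 and 26.6 TPM after MT. A listed 0 can therefore be a failed estimate and is not read as absence of the transcript. A gene listed at or near 0 throughout a group was tested only through the other group. The p-value of such a gene is not taken as support beyond its listed values. With quantile normalization the split of calls over all genes moved from 7367 higher and 4071 lower to 5550 and 5311. Centring each library on the median of the 5988 genes at 1 TPM or more throughout removed a shift of -0.48 between the groups, so a log2 difference near that size depends on the scaling. Larger differences can turn as well, since quantile normalization took that of the heavy chain gene SLC3A1 from 1.68 to -0.84.

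The samples carried blastocyst markers. The trophectoderm keratins KRT8 and KRT18 had 8541 to 8828 and 2726 to 2791 TPM in control libraries, and 6756 to 7010 and 3586 to 3694 TPM in MT-treated libraries. DPPA3, expressed in oocytes and early embryos, had 194 to 198 TPM in control and 106 to 110.2 TPM in MT-treated libraries. The pluripotency factor POU5F1 had 188 to 191 TPM in control and 191 to 194 TPM in MT-treated libraries. CDX2, which defines trophectoderm, and NANOG, which defines the epiblast, were listed at 0 in every control library, with 15.03 to 17.2 and 8.23 to 8.93 TPM after MT. Of 13 trophectoderm markers in the table, all tested, 8 were higher and 5 lower, or 9 higher and 3 lower after median centring. Their summed level was 12572 to 12945 TPM in control and 11450 to 11815 TPM in MT-treated libraries. Of 9 inner cell mass markers in the table, 8 were tested, with 4 higher and 2 lower, and their sum was 457 to 465 TPM in control and 431 to 433 TPM in MT-treated libraries. Of 10 hypoblast markers, 7 were tested and 6 were higher, or 5 higher and 2 lower with quantile normalization. Their sum was 225 to 228 TPM in control and 558 to 564 TPM in MT-treated libraries, with FN1 the most abundant and GATA6 at 0.20 to 0.44 TPM in control against 30.8 to 33.1 TPM in MT-treated libraries. Of 11 cumulus and granulosa markers in the table, 7 were at 0 throughout, INHBA and CYP19A1 did not exceed 0.1 TPM, and FSHR and HSD3B1, the only tested ones, were both lower, or both higher after median centring. Their summed level was 149.9 to 157 TPM in control and 120.6 to 123 TPM in MT-treated libraries. Of 11 blood and stromal markers, 8 were tested, with 5 higher and 2 lower, or 4 and 3 with quantile normalization, and their sum was 284 to 291 TPM in control and 443 to 468 TPM in MT-treated libraries. The globin gene HBB was listed at 0 in all control libraries and had 23.2 to 24.8 TPM after MT, HBA had 32.8 to 35.0 TPM in control and 127 to 147 TPM in MT-treated libraries, and ACTA2 was the most abundant gene of that list. PECAM1 and VWF, the 2 lower genes, had mean levels of 27.8 and 2.88 TPM in control and 7.59 and 0.387 TPM after MT. The part of cell composition in the differences below was not tested, and in pooled blastocysts fewer cells of a type and less RNA per cell cannot be told apart.

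Of the 59 genes, 29 were tested, 5 were detected below the limit for testing and 25 (42.4%) were listed at 0 in all 6 libraries, beside 43.6% of all genes with a symbol. Among the tested genes 15 (51.7%) had higher and 11 (37.9%) had lower levels after MT, beside the 61.6% and 34.1% of all tested genes. SLC1A1, SLC38A10 and SLC38A11 were not called. At a difference of at least 2-fold 14 (48.3%) were higher and 10 (34.5%) lower, where 51.0% and 19.6% of all tested genes were. The groups did not overlap for 26 (89.7%). The shares called in either direction were near the background, and the share lower by at least 2-fold was above it. A gene could pass the limit for testing through a single group, and nothing particular to the transporter genes is read from these counts. Among the 15 higher genes, 7 were listed at 0 throughout the control libraries (24.1% of the tested genes, against 33.8% in the table), and of the 11 lower genes SLC36A2 was listed at 0 in every MT-treated library (3.45%, against 3.01%). Of the 20 genes above 0 in all 6 libraries, 7 were higher and 10 lower, where 40.6% and 52.3% of all such genes were, with a median log2 difference of -0.09 beside -0.19.

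**Figure D1:**
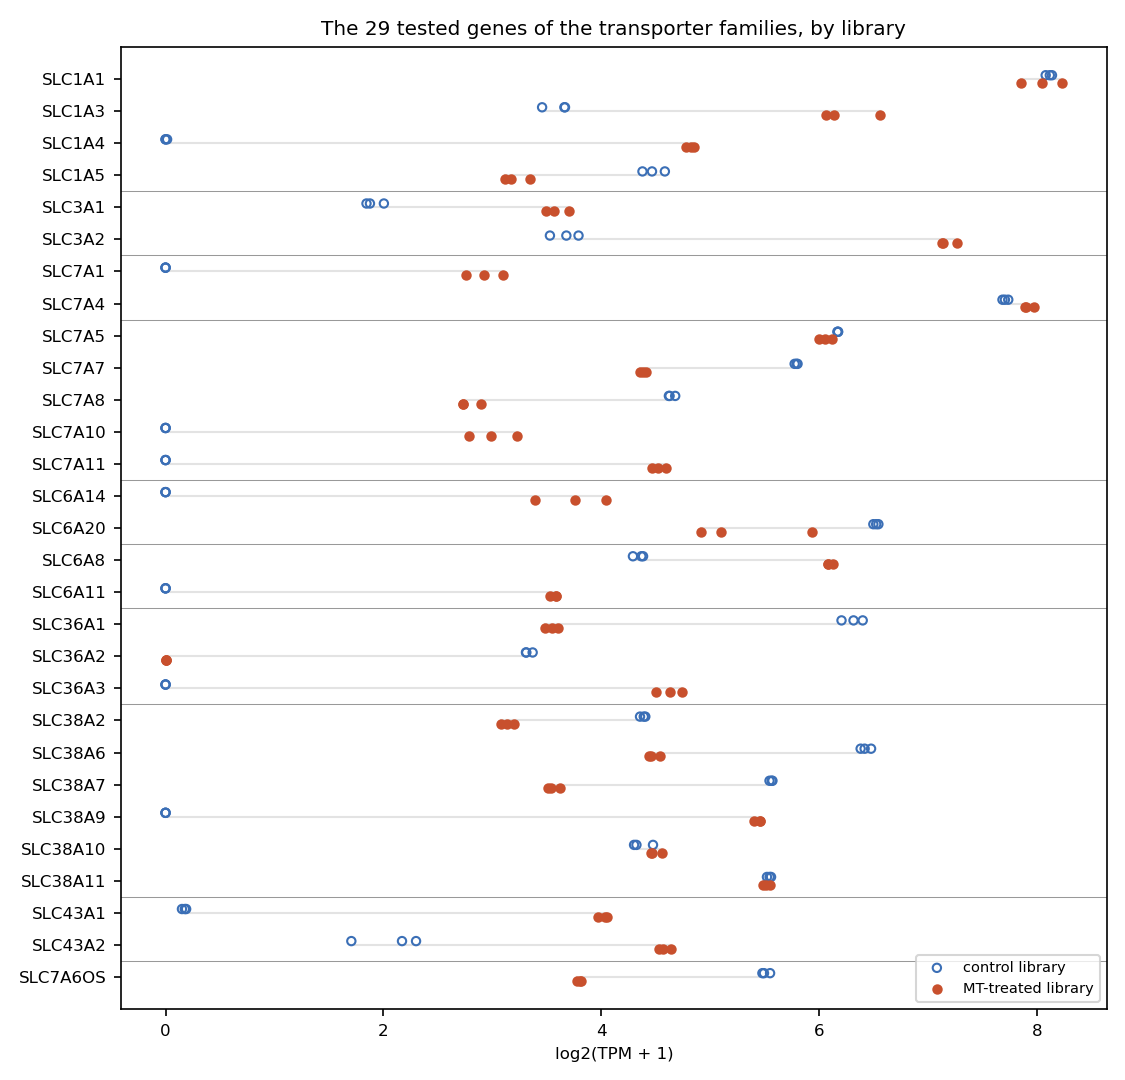
Level of each of the 29 tested genes in each library on the log2(TPM + 1) axis, with open circles for the 3 control and filled circles for the 3 MT-treated libraries, and lines between families. SLC1A1, SLC38A10 and SLC38A11 overlap between groups, SLC7A5 and SLC7A4 lie close together, and 7 genes sit at 0 in all control libraries.

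Of the transporter genes above 1 TPM in all 6 libraries, the largest log2 difference was that of SLC3A2 (ENSBTAG00000013240), the heavy chain also called 4F2hc or CD98, which carries the light chains SLC7A5, SLC7A6, SLC7A7, SLC7A8, SLC7A10 and SLC7A11 to the cell surface. SLC3A2 had 10.5, 11.8 and 12.8 TPM in control and 139, 139 and 152 TPM after MT. All MT-treated values lay above all control values, and the log2 difference was 3.51 (standard error 0.08, adjusted p = 3.16e-08 by limma). Of its tested light chains, SLC7A10 and SLC7A11 were also higher and SLC7A7 and SLC7A8 were lower, while the direction of SLC7A5 depended on the scaling. SLC7A5 (ENSBTAG00000006731), the exchanger LAT1 for large neutral amino acids such as leucine, was the most abundant light chain in both groups. SLC7A5 had 70.8, 71.1 and 71.1 TPM in control and 68.3, 65.3 and 62.9 TPM after MT. The MT-treated values lay just below the control values, with a log2 difference of -0.12 (standard error 0.03, adjusted p = 0.0152 by limma). The difference turned to 0.36 after median centring and 0.17 with quantile normalization, so its direction depends on the scaling.

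SLC7A7 (ENSBTAG00000014821), which exchanges cationic for neutral amino acids and sodium, had 54.4, 53.7 and 54.7 TPM in control and 19.9, 20.3 and 19.5 TPM after MT. SLC7A8 (ENSBTAG00000007415), the broad neutral exchanger LAT2, had 23.6, 23.7 and 24.6 TPM in control and 5.63, 5.64 and 6.46 TPM after MT. Both were lower in every MT-treated library, with log2 differences of -1.40 and -1.85 (adjusted p = 1.34e-08 and 1.61e-07 by limma). SLC7A11 (ENSBTAG00000034075) is the light chain of the cystine and glutamate exchanger, which brings in cystine for glutathione synthesis. It was listed at 0 in all control samples and reached 23.1, 21.95 and 21.03 TPM after MT (adjusted p = 1.07e-09 by limma). SLC7A10, an exchanger of small neutral amino acids including serine, was also listed at 0 in all control samples and reached 8.38, 5.89 and 6.93 TPM after MT (adjusted p = 4.50e-07 by limma). SLC7A6 did not reach the limit for testing, with 0.25, 0.18 and 0.19 TPM in control and 0 in every sample after MT. Among the 5 tested heavy chain partners 2 (40%) were thus higher and 3 (60%) lower, beside 61.6% and 34.1% of all tested genes. Under both scalings in which SLC7A5 turned, 3 were higher and 2 lower.

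The sum of the 6 light chains that pair with SLC3A2 was 149 ± 1.02 TPM in control and 120.3 ± 4.405 TPM in MT-treated blastocysts (SD, n = 3 each), a difference of -29.0 TPM that turned to 17.2 TPM when libraries were rescaled to a common median. Against that sum, SLC3A2 stood at 0.0707, 0.0794 and 0.0852 in control and at 1.11, 1.17 and 1.303 after MT. SLC3A2 mRNA was therefore far below the summed light chain mRNA in each control library and above it in each MT-treated library (exact permutation test, two-sided, n = 3 each, p = 0.1, the smallest that 3 against 3 libraries allow, and 0.117 after Benjamini-Hochberg adjustment over 14 measures per library). The ratio is taken within a library and does not change when all its values are multiplied by a constant. The second heavy chain, SLC3A1, which pairs with SLC7A9 in cystine uptake, had 3.01, 2.59 and 2.67 TPM in control and 10.9, 12.02 and 10.2 TPM after MT. It was higher in every MT-treated library (log2 difference 1.68, adjusted p = 1.00e-06 by limma), but with quantile normalization the difference turned to -0.84. Its partner SLC7A9 was listed at 0 in all 6 libraries.

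**Figure D2:**
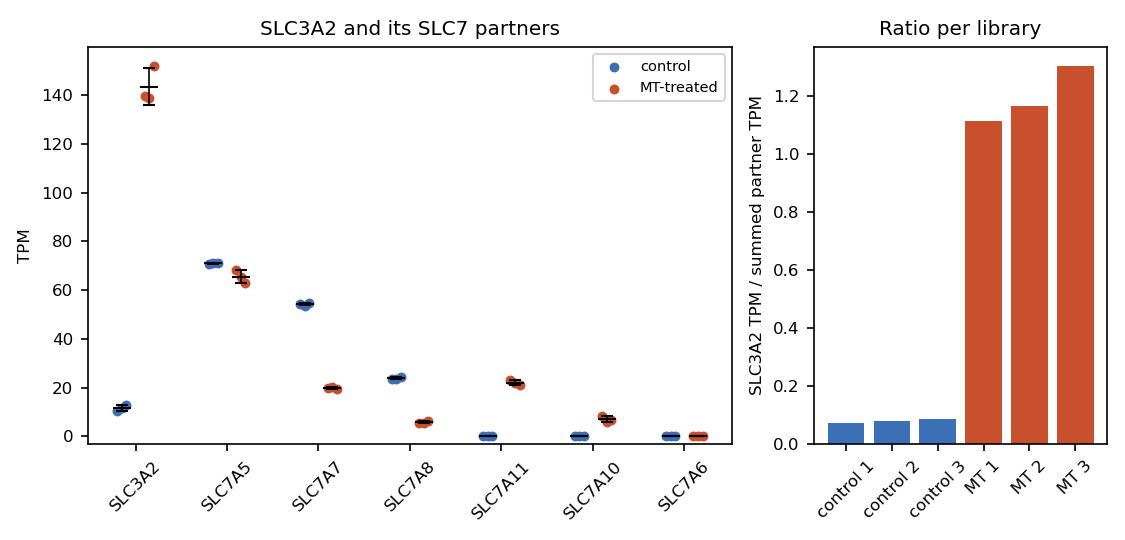
Left, TPM of SLC3A2 and its 6 SLC7 light chains in each library (points), with the group mean and SD over 3 libraries (black bars). Right, the ratio of SLC3A2 to the summed light chains per library, from 0.0707 to 0.0852 in control and from 1.11 to 1.303 in MT-treated blastocysts.

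In the SLC1 family the transcript with the highest mean of the whole set in both groups overlapped between groups while 3 others separated. SLC1A1 (ENSBTAG00000019125), a carrier of glutamate, aspartate and cysteine, had 276, 280.0 and 269 TPM in control and 262, 299 and 229 TPM after MT. The MT-treated values lay on both sides of the control values, and the log2 difference of -0.07 (standard error 0.09) was not called (adjusted p = 0.486 by limma), although after median centring it was 0.41 and called. SLC1A3 (ENSBTAG00000018245), a glutamate and aspartate carrier best known from glia, had 11.7, 11.6 and 9.97 TPM in control and 93.1, 65.8 and 69.4 TPM after MT. It was higher in every MT-treated library (log2 difference 2.66, standard error 0.14, adjusted p = 3.13e-06 by limma), with the first MT-treated replicate above the other two.

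The neutral exchangers of the same family were called in opposite directions, that of SLC1A4 against control values listed at or near 0. SLC1A4 (ENSBTAG00000007763), the alanine, serine and cysteine exchanger ASCT1, had 0, 0 and 0.01 TPM in control and 27.3, 26.4 and 27.9 TPM after MT (adjusted p = 6.15e-10 by limma). SLC1A5 (ENSBTAG00000013577), the glutamine exchanger ASCT2, had 19.8, 21.1 and 23.0 TPM in control and 9.17, 7.69 and 7.98 TPM after MT, a log2 difference of -1.26 (standard error 0.08, adjusted p = 7.79e-06 by limma). After MT the listed level of ASCT1 was above that of ASCT2 in every library, and in control ASCT1 was listed at or near 0. SLC1A2, SLC1A6 and SLC1A7, carriers of acidic amino acids known from neurons, glia and retina, were listed at 0 throughout.

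Of the cationic branch of SLC7, SLC7A4 and SLC7A1 were tested. SLC7A4 (ENSBTAG00000009145), a relative of the arginine carriers whose own transport activity is not established, had 212, 204 and 207 TPM in control and 236, 236 and 249 TPM after MT. The groups did not overlap, but the log2 difference was only 0.21 (standard error 0.03, adjusted p = 0.000365 by limma), within the size that scaling can move, although the direction was the same under each scaling. SLC7A1, the widely expressed arginine and lysine carrier CAT1, was listed at 0 in all control samples and reached 6.59, 7.54 and 5.77 TPM after MT (adjusted p = 1.34e-07 by limma). The other cationic genes SLC7A2 and SLC7A3 and the lysosomal SLC7A14 were listed at 0 throughout.

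Of 19 SLC6 genes, 12 were listed at 0 in all libraries, 3 were detected below the limit for testing and 4 were tested. SLC6A20 (ENSBTAG00000031340), a carrier of proline and other imino acids, had 92.2, 89.2 and 90.8 TPM in control and 33.3, 59.9 and 29.2 TPM after MT. It was lower in every MT-treated library, with a log2 difference of -1.21 (standard error 0.26, adjusted p = 0.0043 by limma), but the second MT-treated replicate stood apart from the other two and the gene had the largest relative spread of the 20 tested genes above 0 in all 6 libraries (coefficient of variation 40.9% in MT-treated and 1.63% in control blastocysts). Without a library in turn, its log2 difference lay between -1.51 and -1.01, with adjusted p-values by limma from 1.41e-05 to 0.0241. SLC6A8 (ENSBTAG00000009959), which carries creatine rather than an amino acid of proteins, had 19.9, 18.6 and 19.6 TPM in control and 66.7, 66.7 and 69.0 TPM after MT, a rise of 1.75 on the log2 scale (adjusted p = 1.98e-08 by limma).

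SLC6A14 and SLC6A11 were listed at 0 in every control library. SLC6A14 (ENSBTAG00000000185), the concentrating carrier of neutral and cationic amino acids described in trophectoderm, had 12.5, 9.49 and 15.5 TPM after MT (adjusted p = 9.89e-07 by limma). SLC6A11, a carrier of the neurotransmitter GABA, had 10.96, 10.5 and 11 TPM after MT (adjusted p = 9.28e-10 by limma). SLC6A9, the glycine carrier known for volume control in early embryos, did not exceed 0.02 TPM, and neither did SLC6A6, the taurine carrier. SLC6A2, the noradrenaline carrier, had 0.03 TPM in a single MT-treated library. Among the genes listed at 0 throughout were the monoamine carriers SLC6A3 and SLC6A4, the betaine carrier SLC6A12, the glycine carrier SLC6A5 and the proline carrier SLC6A7.

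In the SLC36 family, proton-coupled carriers of glycine, alanine and proline, different members were listed in the different groups. SLC36A1 (ENSBTAG00000016094), which exports small amino acids from lysosomes and also acts at the cell surface, had 72.7, 78.5 and 83.3 TPM in control and 11.2, 10.2 and 10.7 TPM after MT, a fall of 2.76 on the log2 scale (standard error 0.06, adjusted p = 3.19e-08 by limma). SLC36A2 had 8.90, 9.33 and 8.92 TPM in control and 0 in every sample after MT (adjusted p = 1.22e-09 by limma). SLC36A3 had 0 in each control library and 21.7, 23.7 and 25.8 TPM after MT (adjusted p = 4.52e-09 by limma), and SLC36A4 was listed at 0 throughout. SLC36A1, SLC36A2 and SLC36A3 neighbour each other in the RefSeq gene order of the ARS-UCD2.0 assembly. Along this stretch the outer gene SLC36A3 was listed above 0 in MT-treated libraries only, the middle gene SLC36A2 in control libraries only and the other outer gene SLC36A1 in both. The files do not state how reads shared between similar genes were handled, and the value of each close relative is uncertain to that extent.

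In the SLC38 family of neutral amino acid carriers, 6 of 11 genes were tested, of which 3 (50%) were lower, SLC38A9 (16.7%) was higher and SLC38A10 and SLC38A11 were not called. Of all tested genes 34.1% were lower and 61.6% higher. SLC38A2 (ENSBTAG00000011105), the sodium-coupled carrier of system A that responds to amino acid shortage, had 19.5, 20.2 and 19.9 TPM in control and 7.46, 7.75 and 8.18 TPM after MT (log2 difference -1.25, adjusted p = 2.30e-07 by limma). SLC38A6 (ENSBTAG00000007931), a less studied member, had 84.3, 87.9 and 82.2 TPM in control and 20.9, 22.2 and 20.6 TPM after MT (log2 difference -1.95, adjusted p = 2.64e-08 by limma). Both fell in every MT-treated library. SLC38A11 had 45.6, 44.9 and 46.1 TPM in control and 43.7, 44.5 and 45.7 TPM after MT, and SLC38A10 had 21.2, 19.0 and 18.7 TPM against 21.0, 22.5 and 20.9 TPM. These groups overlapped, with log2 differences of -0.03 (standard error 0.03, adjusted p = 0.352 by limma) and 0.12 (standard error 0.06, adjusted p = 0.0785 by limma). Without the first control replicate SLC38A10 was called higher, with a log2 difference of 0.18 (adjusted p = 0.0125 by limma). After median centring both were called higher, which gave 3 higher and 3 lower genes in the family, and with quantile normalization SLC38A11 was called higher, which gave 2 and 3. SLC38A1, SLC38A3, SLC38A4, SLC38A5 and SLC38A8 were listed at 0 in all 6 libraries, and SLC38A1 and SLC38A4 are the neighbours of SLC38A2 in the RefSeq order.

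The carriers known from lysosomes did not move together. SLC38A9 (ENSBTAG00000033313), which senses lysosomal arginine and activates mTORC1 through the Rag GTPases, was listed at 0 in all control samples and reached 41.2, 42.97 and 42.98 TPM after MT (adjusted p = 5.70e-10 by limma). SLC38A7 (ENSBTAG00000007170), the lysosomal exporter of glutamine and asparagine, had 46.5, 46.2 and 45.6 TPM in control and 11.3, 10.6 and 10.4 TPM after MT, a log2 difference of -2.001 (standard error 0.04, adjusted p = 1.36e-08 by limma). The exporters SLC36A1 and SLC38A7 were thus lower in every MT-treated library, whereas the call for SLC38A9 rests on a listed 0 in each control library.

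Both tested facilitators of the SLC43 family were higher in MT-treated blastocysts. SLC43A1 (ENSBTAG00000051230), the leucine facilitator LAT3, had 0.14, 0.11 and 0.13 TPM in control and 15.6, 14.6 and 15.3 TPM after MT (log2 difference 3.84, standard error 0.04, adjusted p = 1.28e-09 by limma). SLC43A2 (ENSBTAG00000011482), the related LAT4, had 3.92, 2.26 and 3.50 TPM in control and 22.1, 23.9 and 22.6 TPM after MT (log2 difference 2.52, standard error 0.15, adjusted p = 6.64e-06 by limma). Neither pair of groups overlapped. SLC43A3, which carries purine bases, was listed at 0 in control and had 0.45, 0.37 and 0.65 TPM after MT, below the limit for testing.

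Of the leucine carriers SLC7A5, SLC7A8, SLC43A1 and SLC43A2, SLC7A5 was thus the most abundant in both groups, while SLC7A8 was lower and SLC43A1 and SLC43A2 were higher. Outside the transporters, SLC7A6OS had 44.0, 43.5 and 45.8 TPM in control and 13.0, 13.0 and 12.7 TPM after MT (log2 difference -1.71, adjusted p = 1.22e-08 by limma). SLC7A6OS and SLC7A6 are neighbours in the RefSeq order and lie on opposite strands by name. Counting by strand is not stated in the sources used here, so whether reads of this pair were told apart where they overlap is not known.

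Summed over the 59 genes, libraries held 1141, 1139 and 1139.8 TPM in control and 1263, 1295 and 1230.2 TPM after MT. Every sum after MT was higher, by 123 TPM on average (exact permutation test, two-sided, n = 3 each, p = 0.1, adjusted 0.117), and by 545 TPM when libraries were rescaled to a common median. The number of the 59 genes above 0 TPM was 22, 23 and 24 in control and 31, 30 and 30 after MT, and the number at 1 TPM or more was 20 in each control library and 28 in each MT-treated library (p = 0.1 for both in the same exact test). Detection was higher in the whole table as well, as given above. The transcript pool was concentrated in few genes, since the 5 most abundant carriers held 67.0% to 67.5% of the TPM of the 58 transporters in control and 62.9% to 63.9% in MT-treated libraries. SLC1A1, SLC7A4, SLC6A20, SLC38A6 and SLC36A1 were these 5 in each control library. In each MT-treated library SLC1A1, SLC7A4, SLC3A2 and SLC1A3 were among the 5, with SLC7A5 or SLC6A8 as the other.

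The share of each family in that pool differed most for the heavy chains and the SLC38 carriers. The heavy chains made up 1.32% ± 0.0913 of transporter TPM in control and 12.4% ± 0.845 in MT-treated blastocysts (SD, n = 3 each). The SLC38 family made up 19.7% ± 0.253 and 11.9% ± 0.313, and the SLC36 family 7.96% ± 0.498 and 2.76% ± 0.207, in the same order (SD, n = 3 each). The heavy chain partners made up 13.6% ± 0.109 and 9.63% ± 0.371, the amino acid members of SLC6 8.28% ± 0.133 and 4.25% ± 1.01, the other SLC6 members 1.77% ± 0.0636 and 6.27% ± 0.277, and SLC43 0.306% ± 0.0802 and 3.08% ± 0.0753, in control and MT-treated blastocysts (SD, n = 3 each). For these 7 shares the groups did not overlap (exact permutation test, two-sided, n = 3 each, p = 0.1, adjusted 0.117). The other 2 shares overlapped, with SLC1 at 28.1% ± 0.469 and 29.96% ± 2.15 (p = 0.4 in the exact test) and the cationic branch of SLC7 at 18.96% ± 0.345 and 19.8% ± 1.02 (p = 0.2 in the exact test, SD and n = 3 each). A share is taken within a library and does not change when all its values are multiplied by a constant, and shares after quantile normalization were not computed.

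**Figure D3:**
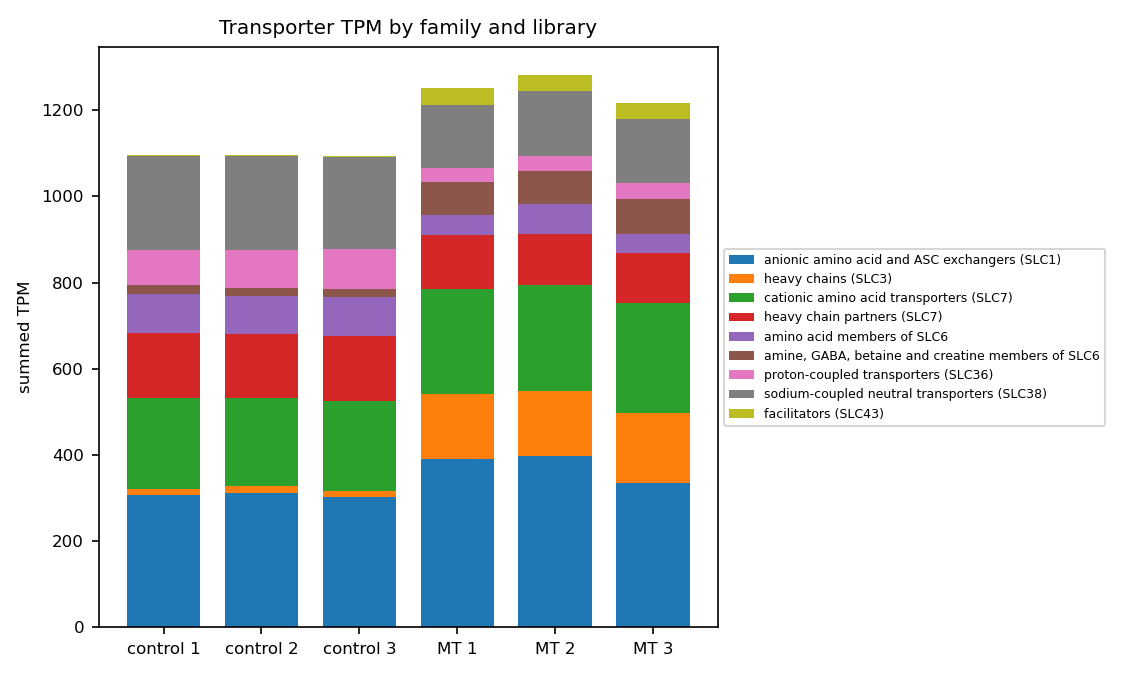
Summed TPM of the 58 transporter genes in each library, stacked by family. The total lies between 1094 and 1097 TPM in control and between 1217 and 1282 TPM after MT, and the segment of the heavy chains differs most.

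Replicates lay close together for most genes. For the 20 tested genes detected in all 6 libraries, the coefficient of variation ran from 0.257% for SLC7A5 to 26.7% for SLC43A2 in control and from 1.31% for SLC7A6OS to 40.9% for SLC6A20 in MT-treated blastocysts. SLC1A3 with 19.5% and SLC1A1 with 13.2% were the next most variable genes of these 20 in MT-treated blastocysts. For SLC1A1 and SLC6A20 the second MT-treated replicate was the highest and the third the lowest, whereas for SLC1A3 the first was the highest and the second the lowest.

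Several carriers are known targets of ATF4, the transcription factor through which cells answer amino acid shortage. A list of 10 such genes among the transporters had 7 tested members. SLC1A4, SLC3A2, SLC7A1 and SLC7A11 were higher (57.1%) and SLC1A5, SLC7A5 and SLC38A2 lower (42.9%), beside 61.6% and 34.1% of all tested genes. Under both scalings, where SLC7A5 turned, 5 were higher and 2 lower. Of the 4 members above 0 in all 6 libraries 1 was higher and 3 were lower, where 40.6% and 52.3% of all such genes were. The summed level of the list was 120.5 to 127 TPM in control and 275 to 286 TPM in MT-treated libraries. Most of that difference lay in SLC3A2 alone, with group means of 11.7 and 143 TPM, so the sum does not show the list rising together. ATF4 itself had 298, 303 and 293 TPM in control and 334, 338 and 329 TPM after MT, a small rise of 0.16 on the log2 scale (adjusted p = 0.000173 by limma). Among 23 tested genes of the wider GCN2 and ATF4 response, 10 (43.5%) were higher, 7 of them at 0 in every control library, and 11 (47.8%) lower, beside 61.6% and 34.1% of all tested genes. With quantile normalization 7 were higher and 13 lower, and after median centring 12 were higher and 9 lower. CTH, which makes cysteine, and PHGDH, which starts serine synthesis, were both listed at 0 in control, with 94.2, 91.9 and 93.5 TPM and 56.8, 61.7 and 59.0 TPM after MT. GDF15, a stress-induced secreted factor, had 16.1, 15.1 and 16.3 TPM in control and was listed at 0 in each MT-treated library, and DDIT3, a stress factor downstream of ATF4, fell from 155, 151 and 153 TPM to 37.0, 38.5 and 40.1 TPM. Transcripts of CTH and of SLC7A11, which supply cysteine by synthesis and by uptake of cystine, were thus both listed at 0 in control and above 0 in each MT-treated library. Of all tested genes 33.8% were listed at 0 in every control library, so nothing particular to cysteine supply is read from these 2 genes.

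Amino acid sensing by mTORC1 was covered by 34 listed genes, of which 28 were tested, with 15 (53.6%) higher and 12 (42.9%) lower, beside 61.6% and 34.1% of all tested genes, and 13 higher and 14 lower with quantile normalization. RRAGD, a Rag GTPase, and NPRL2, a subunit of the GATOR1 complex, were listed at 0 in control and reached 30.2, 36.9 and 61.1 TPM and 36.6, 36.3 and 35.99 TPM after MT. CASTOR1, a cytosolic arginine sensor, had 25.0, 25.1 and 24.3 TPM in control and was listed at 0 in each MT-treated library, and RPTOR, the scaffold of mTORC1, fell from 76.3, 83.1 and 84.7 TPM to 12.9, 13.5 and 12.6 TPM. The arginine sensors CASTOR1 and SLC38A9 were therefore listed in opposite groups. MTOR was not called, with a log2 difference of 0.01 (adjusted p = 0.859 by limma).

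Of 24 other amino acid and peptide transporters in the table, outside the families above, 13 were tested, with 7 (53.8%) higher and 6 (46.2%) lower, beside 61.6% and 34.1% of all tested genes, or 8 and 4 after median centring and 5 and 7 with quantile normalization. SLC15A2, a peptide carrier, and SLC25A13, a mitochondrial aspartate and glutamate carrier, were listed at 0 in control and reached 47.0, 37.5 and 42.96 TPM and 17.5, 20.1 and 18.7 TPM after MT. SLC25A38, a mitochondrial glycine carrier, fell from 18.2 ± 0.646 to 4.70 ± 0.327 TPM, and SLC25A44, a mitochondrial carrier of branched-chain amino acids, from 3.37 ± 0.27 to 1.32 ± 0.176 TPM (SD, n = 3 each). Among 9 tested partners and regulators, 5 (55.6%) were higher and 4 (44.4%) lower, against the same background. ARL6IP5, an inhibitor of SLC1A1, and CD44, which stabilizes SLC7A11 at the membrane, were listed at 0 in control and reached 56.5, 54.6 and 56.4 TPM and 11.9, 11.9 and 12.7 TPM after MT. CLTRN, a partner of SLC6 carriers in kidney, had 10.97, 11.8 and 11.2 TPM in control and was listed at 0 after MT, and SGK1, a kinase that raises the surface level of several carriers, fell from 58.5 ± 1.11 to 16.1 ± 3.72 TPM (SD, n = 3 each).

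Among 25 tested enzymes of amino acid metabolism, a list that shares CTH, PHGDH and other genes with the ATF4 response, 11 (44%) were higher and 13 (52%) lower, against the same background, or 14 and 11 after median centring. BCAT2, the mitochondrial branched-chain aminotransferase, had 5.87, 5.83 and 6.25 TPM in control and was listed at 0 in each MT-treated library. CTH, PHGDH and BCAT2 were called (adjusted p from 5.70e-10 to 2.97e-09 by limma). Each of these lists held both higher and lower genes, with a share of called genes near the 95.7% of the table.

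**Figure D4:**
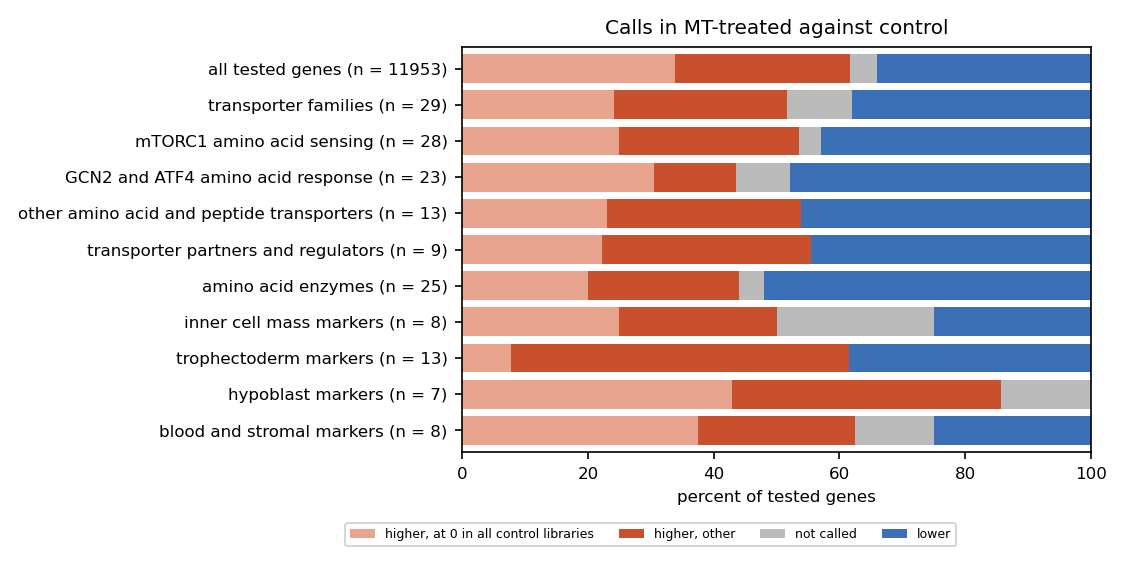
Percent of tested genes in each list that were higher (light red where listed at 0 in all control libraries, dark red otherwise), not called (grey) or lower (blue) in MT-treated blastocysts, with the number tested in brackets, beside all 11953 tested genes. The genes chosen by symbol, at 51.7% higher and 37.9% lower with SLC7A6OS counted, and each pathway list hold both directions, and the hypoblast list, with 6 of 7 higher, holds no lower gene (5 higher and 2 lower with quantile normalization).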

How the data were processed

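Gene expression was measured in 6 blastocyst libraries. Per the labels and the paper's methods, the authors filtered reads with fastp and FastQC 0.11.9, aligned them with STAR 2.7.9a to ARS-UCD1.3 (ARS-UCD1.2 in the submitters' processing notes) and counted genes with featureCounts (Subread 1.6.3). The methods name Smart-seq2 and the labels a TruSeq kit. The authors deposited TPM with 2 decimals, with no account of that conversion in the sources used here. Depth cannot be read from TPM, and the depths reported by the study were not used here.

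Genes reaching 1 TPM in 3 or more libraries entered a fit on log2(TPM + 1) with limma 3.58.1 (eBayes with trend, R 4.3.3), Benjamini-Hochberg threshold 0.05. DESeq2, which the authors used on counts, needs counts and was not run. Measures per library were compared with exact permutation tests (scipy 1.17.1). The members, lists and named genes were chosen with earlier results of these data known. Every tested member is named, with up to 2 rises and 2 falls of each pathway list and the most abundant markers. A few genes that this rule names are not reported here. HBB, PECAM1, VWF, CDX2, NANOG, INHBA, CYP19A1, ATF4, GCN1 and MTOR were also named after their values were seen. RefSeq gene order was used for neighbours only, with 59 of 59 symbols matched.

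Replicate numbers are not said to mark a shared production run. Libraries were therefore treated as unpaired. Correlations of same-numbered deviations were -0.01, -0.00068 and 0.06, and those of differently numbered pairs ran from -0.046 to 0.050. Deviations from means of 3 libraries cannot decide whether runs were shared. The fit was tested on simulated data. Alternatives were the pseudocount, filters, scalings, trend, replicate block and each library left out.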

Additional observations from a re-analysis of the deposited data

How the results depend on the processing

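The calls and directions of the 29 tested genes held with eBayes without the trend, a stricter filter (5 TPM) or none, a smaller pseudocount (0.1) and the replicate block. The block changed no call among the 29 tested genes (15 higher and 11 lower, the latter with SLC7A6OS), and of the named genes only FSHR was no longer called (log2 difference -0.17, adjusted p = 0.06 by limma), leaving 1 lower cumulus gene. FSHR was also not called without the second or the third replicate of either group (adjusted p from 0.0725 to 0.0957 by limma). Median centring turned SLC7A5 to 0.36, SLC38A11 to 0.45, SLC1A1 to 0.41, KRT8 to 0.15, HSD3B1 to 0.12 and FSHR to 0.31 on the log2 scale, and gave 3 lower trophectoderm and 2 higher and 0 lower cumulus genes. Quantile normalization turned SLC7A5 to 0.17, SLC38A11 to 0.27, SLC3A1 to -0.84, SLC38A10 to -0.041 and SLC1A1 to 0.091, and gave 2 lower hypoblast genes. Without the third MT-treated replicate SLC1A1 turned to 0.025, uncalled as before. Rescaling to a common median moved the difference in summed TPM from 123 to 545 and turned that of the SLC3A2 partners to 17.2. Keeping only genes above 0 in all 6 libraries, which tests fewer genes, left 7 higher transporter genes, 8 in mTORC1 sensing, 3 in the ATF4 response, 4 other transporters, 3 higher and 2 lower partners, 6 enzymes, 1 inner cell mass, 3 hypoblast and 2 blood or stromal genes, and 2814 of all genes. A minimum TPM of 5 left 1 lower blood or stromal gene. With each library left out in turn, 1 to 2 cumulus genes were lower. The causes of these shifts were not tested. Values without counts and 3 libraries a group limit what can be read, also at low levels such as those of SLC43A1 and SLC7A6 in control.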
